A study of Mus musculus with 8 samples.

Results

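The genes described here bind, take up, esterify or generate retinoids in the small intestine of the mouse fetus. They are the cytosolic retinol carriers Rbp2 and Rbp7, the plasma retinol carrier Rbp4, the retinoic acid binding proteins Crabp1 and Crabp2, the receptors Stra6 and Stra6l, the acyltransferase Lrat and the carotene oxygenase Bco1. Every probe set of the array with exactly 1 gene symbol, that symbol being 1 of these 9, was taken, which gave 10 of 45101 probe sets for 9 of 18194 genes. Lrat had 2 probe sets and each other gene had 1.

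Total RNA of fetal small intestine at 18.5 days post coitum was hybridised to Affymetrix MOE430 2.0 arrays, 1 array per sample. There were 4 Plagl2 knockout and 4 wild-type samples. Plagl2 belongs to the PLAG group of zinc finger proteins that regulate transcription. The labels used here give no strain, no deleted part of the gene and no litters, so a p-value covers the spread among these samples, which may be technical. The Plagl2 probe set 1417517_at gave signals of 3 to 11 in knockout and 697 to 824 in wild-type samples. All 9 epithelial markers examined were above the filter described below. Of these, Krt20 (log2 fold change 2.55), Krt19 (0.70) and Krt8 (0.52) were higher and Krt18 (-1.02) and Cdx1 (-1.01) were lower in knockouts, while Epcam, Cdh1, Vil1 and Cdx2 were not called, and the part of this in the results was not tested.

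In the intestine, beta-carotene from the diet is cleaved to retinal, retinal is reduced to retinol on RBP2, and LRAT esterifies retinol so that it can leave in chylomicrons, the lipoproteins that carry absorbed fat. Retinol from the liver reaches tissues on RBP4, which is recognised by STRA6 and, in mouse liver and intestine, by the related protein RBPR2, the product of Stra6l. In cells, retinol can be oxidised to retinoic acid, which CRABP proteins bind and which acts through nuclear receptors. In the mouse intestine retinoic acid is known to induce the transcription factor ISX, which represses Bco1.

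The promoters of the 3 genes that passed the test between genotypes are shown because 2 of the genes were lower and 1 was higher in knockouts. The windows are from RefSeq on build GRCm38.p6, run from 250 bases before to 50 bases after an annotated start, and are written in the direction of the gene. Capitals mark matches on either strand to the core GGGGC of the PLAG site, to the longer PLAG consensus and to AGGTCA, the hexamer that nuclear receptors such as those of retinoic acid bind. Stra6l, which has a pair of overlapping windows, is shown by the window at chr4:45848566-45848865 on the plus strand. The Lrat window is chr3:82903925-82904224 on the minus strand, and that of Bco1 is chr8:117095615-117095914 on the plus strand.
Stra6l: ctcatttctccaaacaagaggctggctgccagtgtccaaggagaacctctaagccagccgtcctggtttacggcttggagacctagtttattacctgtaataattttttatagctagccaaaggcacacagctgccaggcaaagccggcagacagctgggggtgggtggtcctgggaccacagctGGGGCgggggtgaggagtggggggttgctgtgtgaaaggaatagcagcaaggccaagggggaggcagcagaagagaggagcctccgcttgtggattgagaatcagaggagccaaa
Lrat: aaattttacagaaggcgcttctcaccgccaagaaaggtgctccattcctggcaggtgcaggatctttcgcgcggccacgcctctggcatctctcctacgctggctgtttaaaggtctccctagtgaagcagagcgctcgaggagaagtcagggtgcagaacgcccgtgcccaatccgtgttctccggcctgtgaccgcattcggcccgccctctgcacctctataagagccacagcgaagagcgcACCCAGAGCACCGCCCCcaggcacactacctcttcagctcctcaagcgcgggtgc
Bco1: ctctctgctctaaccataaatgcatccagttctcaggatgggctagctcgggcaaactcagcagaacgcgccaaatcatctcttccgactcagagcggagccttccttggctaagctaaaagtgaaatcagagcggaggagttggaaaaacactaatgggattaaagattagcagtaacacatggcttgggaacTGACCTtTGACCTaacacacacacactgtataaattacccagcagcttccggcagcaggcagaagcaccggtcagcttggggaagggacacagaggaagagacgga

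The Stra6l window held 1 PLAG core, starting at position -65 with the annotated start at 0, and no longer consensus. In the Lrat window 1 match to the consensus covered its single core on the minus strand, starting at -5. The Bco1 window had neither, but held AGGTCA on the minus strand at 2 places with 1 base between them, from -56, which together form the direct repeat AGGTCANAGGTCA. Of all 32851 windows of this length, 60.8% held the PLAG core, 19.2% the consensus and 16.3% the hexamer. The direct repeat with 1 base between was in 13 windows (0.0396%). Direct repeats with 2 bases (AGGTCANNAGGTCA) or 5 bases (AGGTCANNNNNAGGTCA) between were in 3 windows each, and in none of the windows of these genes. The site of the intestinal factor CDX2, searched as TTTATG or TTTATT, was in 27.6% of windows, among them the Stra6l window shown and that of Bco1. The other Stra6l window lacked it, and a window of Rbp4 and a window of Stra6 held it. The consensus was also in windows of genes not called or not tested, with 4 matches in Crabp1 and 1 in Rbp7. A window of Rbp4 held 3, and windows of Stra6 held 2 and 1. Rbp2, which was not called, held the hexamer at -58. Windows were found for 8 of the 9 genes, and a match describes the letters only.

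Of the 10 probe sets, 7 passed a filter that left out the 40% of probe sets with the lowest mean signal, and 3 did not. At an adjusted p under 0.05 (limma, Benjamini-Hochberg over 26982 probe sets), 2 of the 7 were lower and 1 was higher in knockouts, against 6.75% lower and 5.33% higher among all probe sets tested. The lower probe sets were those of Stra6l and 1 of the pair for Lrat, and the higher one was that of Bco1. Fold changes are on the scale of log2(signal + 16), knockout over wild-type, and the added 16 makes them smaller than the ratio of raw signals where a group is dim. In whole tissue, fewer cells of a type and less RNA per cell cannot be told apart.

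**Figure D1:**
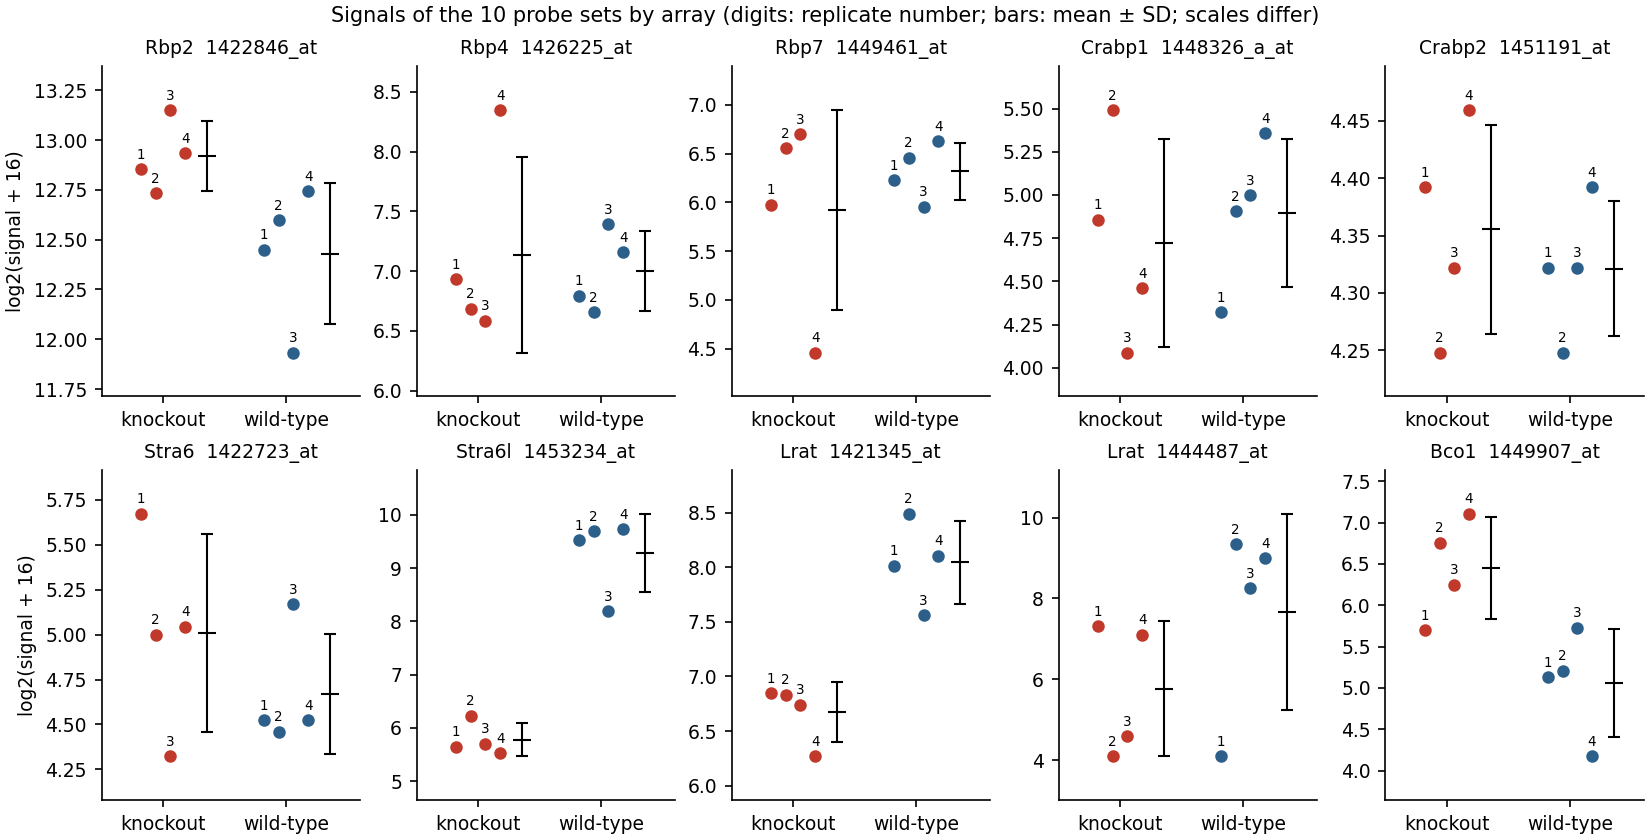
Signal as log2(signal + 16) of each of the 10 probe sets, 1 point per array with its replicate number, knockout (red) left of wild-type (blue), and the mean ± SD of 4 arrays as bars. Stra6l and Lrat 1421345_at do not overlap between genotypes, and knockout replicate 4 stands apart for Rbp4 and Rbp7.

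Among the receptors, Stra6l (1453234_at, gene at chr4:45824293-45887010) showed the largest difference of the 7 probe sets. Its signals were 34, 59, 36 and 30 in knockout samples, against 721, 813, 277 and 836 in wild-type samples. The genotypes did not overlap, a separation seen in 9.31% of probe sets tested in this direction and in 7.76% in the other, and wild-type replicate 3 lay well below the other wild-types. The mean was 39.8 ± 13.1 in knockouts and 662 ± 261 in wild-types (SD, n = 4 each), a raw ratio of 0.0601. On the log2 scale Stra6l fell by 3.51 ± 0.30 (SE, adjusted p = 1.54e-05 by limma), the 19th lowest change of all 26982 probe sets. Wild-type replicate 3 also had the lowest summed signal of the 9 epithelial markers of any array (19169, against 20490 to 22009 in the other wild-types). It had the highest fibroblast sum of the wild-types (12400, against 8393 to 10062). The part of this in its Stra6l signal was not tested, and without that array Stra6l fell by 3.88.

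Stra6 (1422723_at, chr9:58063793-58154004), the receptor of retinol-bound RBP4, was near the lower end of the signals in both genotypes and did not pass the filter. It gave 35, 16, 4 and 17 in knockout samples, against 7, 6, 20 and 7 in wild-type samples. The groups overlapped, and in a fit with no filter its log2 fold change was 0.34 (95% interval -0.29 to 0.97, adjusted p = 0.607 by limma).

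Lrat (chr3:82892582-82903974), the enzyme that makes retinyl esters, was read by a pair of probe sets that differed in how even they were within a genotype. Probe set 1421345_at gave 99, 98, 91 and 61 in knockouts, against 243, 344, 173 and 260 in wild-types. Each knockout lay below each wild-type, with means of 87.3 ± 17.9 and 255 ± 70.3 (SD, n = 4 each) and a raw ratio of 0.342. By this probe set Lrat fell by 1.37 ± 0.20 on the log2 scale (SE, adjusted p = 0.000687 by limma), and it was called under every alternative processing tried.

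The other Lrat probe set, 1444487_at, gave 143, 1, 8 and 121 in knockouts, against 1, 636, 288 and 493 in wild-types. Wild-type replicate 1 thus had no more signal than knockout replicate 2, although its signal on 1421345_at was like that of the other wild-types. The log2 fold change of -1.90 ± 1.06 (SE) did not pass the test (95% interval -4.22 to 0.43, adjusted p = 0.294 by limma). Without wild-type replicate 1 it was -3.09 and was called (adjusted p = 0.0241 by limma). Knockout replicates 2 and 3, the low ones on this probe set, were also the only arrays with signal of Xist, the RNA of the inactive X chromosome (1828 and 1410, at most 47 elsewhere). Eif2s3y, a gene of the Y chromosome, gave 7 and 3 in them and 562 to 770 elsewhere. Female samples were thus found among the knockouts only. Wild-type replicate 1, which gave 1 on 1444487_at, had an Xist signal of 21 and an Eif2s3y signal of 770. The part of sex in the values of this probe set was not tested. In the 6 arrays without Xist signal the difference on 1444487_at was -0.46 (adjusted p = 0.859 by limma), while that on 1421345_at was -1.49 (adjusted p = 0.00665 by limma). Since 1444487_at had the higher mean, a count of 1 probe set per gene by highest mean leaves Lrat uncalled, and the mean of both gave -1.64 (adjusted p = 0.0841 by limma).

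Bco1 (1449907_at, chr8:117095851-117133720), which cleaves beta-carotene into retinal, went the other way. Its signals were 36, 92, 60 and 122 in knockout samples, against 19, 21, 37 and 2 in wild-type samples. The genotypes overlapped by a single pair, knockout replicate 1 lying just under wild-type replicate 3. The means were 77.5 ± 37.5 in knockouts and 19.8 ± 14.3 in wild-types (SD, n = 4 each), and the log2 fold change was 1.39 ± 0.36 (SE, adjusted p = 0.0249 by limma). The wild-type mean was below the filter's limit of 24.6, so this probe set passed only through the knockouts, where it was high. The call ended when knockout replicate 2 or 4, or wild-type replicate 1, 2 or 4, was left out (adjusted p = 0.0521 to 0.082 by limma). It also ended in the arrays without Xist signal (1.35, adjusted p = 0.126 by limma), and with an offset of 1 the log2 fold change was 2.25 (adjusted p = 0.059 by limma).

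**Figure D2:**
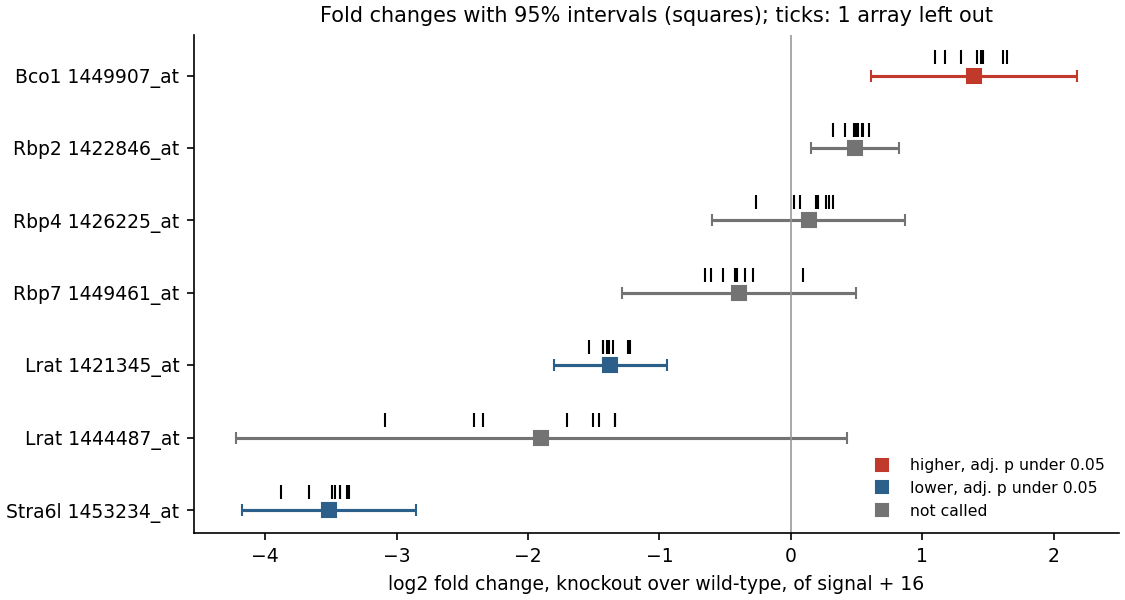
Log2 fold change (knockout over wild-type, signal + 16) of the 7 probe sets tested, as squares with 95% intervals from the limma fit, and ticks above each for the fits with 1 array left out. The ticks of Stra6l run from -3.88 to -3.36 and those of Lrat 1421345_at from -1.53 to -1.22, while those of Rbp4 and Rbp7 fall on both sides of 0.

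Rbp2 (1422846_at, chr9:98490537-98509771), the retinol and retinal carrier of enterocytes, was the brightest of the 10 probe sets on the array, the 118th of all by mean signal. It gave 7387, 6799, 9080 and 7806 in knockout samples, against 5578, 6176, 3893 and 6838 in wild-type samples. The groups overlapped by 1 pair, knockout replicate 2 and wild-type replicate 4, and wild-type replicate 3 was the lowest array. Means were 7768 ± 967 in knockouts and 5621 ± 1262 in wild-types (SD, n = 4 each). The log2 fold change of 0.49 ± 0.15 (SE) did not pass the threshold (95% interval 0.16 to 0.82, adjusted p = 0.0587 by limma). With wild-type replicate 4 left out it was 0.59 and was called (adjusted p = 0.0316 by limma), and without wild-type replicate 3 it was 0.32 (adjusted p = 0.0597 by limma).

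Rbp7 (1449461_at, chr4:149449687-149466462), a further cytosolic retinol carrier, gave 47, 78, 88 and 6 in knockouts, against 59, 72, 46 and 83 in wild-types. Knockout replicate 4 was far below the other arrays, the remaining knockouts overlapped the wild-types, and the log2 fold change was -0.40 (95% interval -1.28 to 0.49, adjusted p = 0.594 by limma). Leaving that array out turned it to 0.09 (adjusted p = 0.848 by limma).

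Rbp4 (1426225_at, chr19:38116620-38125321), the carrier of retinol in plasma, is made mainly by the liver. Its signals were 106, 87, 80 and 310 in knockouts, against 95, 85, 152 and 127 in wild-types. The knockout group held both the lowest and the highest array, and the log2 fold change was 0.14 (95% interval -0.60 to 0.87, adjusted p = 0.843 by limma). Without knockout replicate 4 it was -0.27 (adjusted p = 0.449 by limma).

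The same array stood apart in liver markers. All 6 liver markers other than Cps1, which fetal gut makes as well, were highest in knockout replicate 4, with a summed signal of 8399. The sums were 75 to 1141 in the other knockouts and 491 to 641 in wild-types, and albumin (Alb) alone gave 4646, 4 to 656 and 15 to 122. The other liver plasma protein of retinol transport is transthyretin (Ttr), which binds RBP4. Among knockouts Ttr was highest in replicate 4, at 3279 against 633 to 1254. Wild-types gave more, 4033 to 5856, although their liver sums were lower than that of knockout replicate 4. In each wild-type the largest of the 6 markers was Fga (558, 408, 209 and 345), which gave 181, 49, 16 and 1161 in knockouts. The sums thus rest on different markers in different arrays. In knockout replicate 1, with the next highest liver sum, Rbp4 was within the range of the wild-types. The part of liver RNA in the Rbp4 value was not tested.

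**Figure D3:**
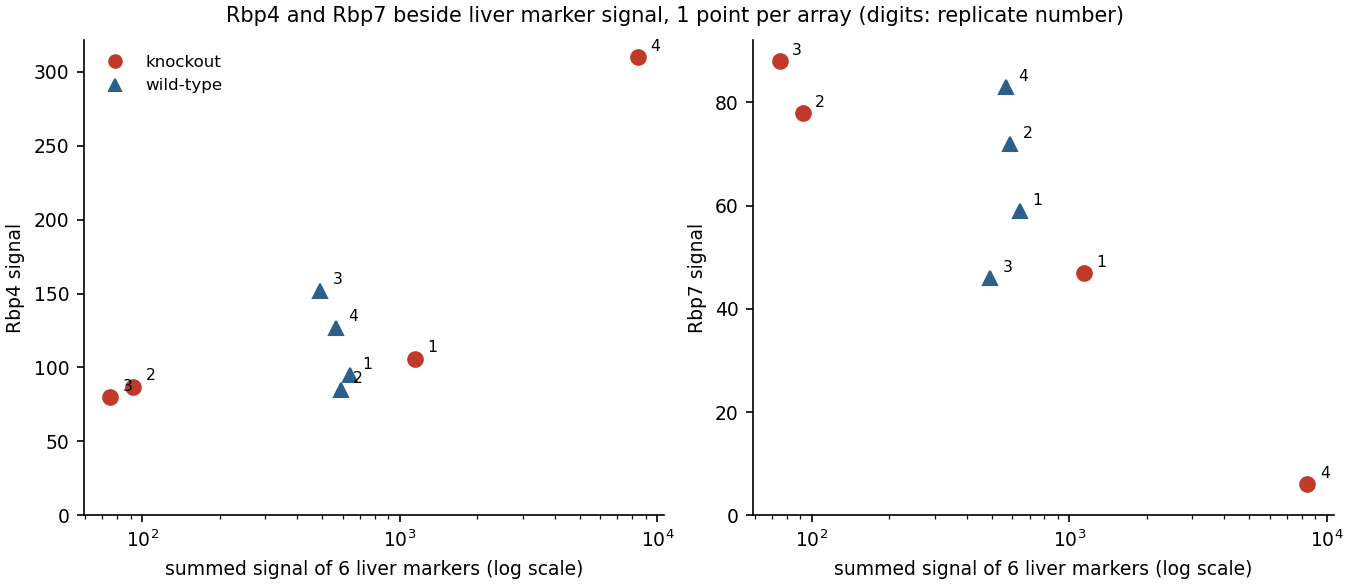
Signal of Rbp4 (left) and Rbp7 (right) against the summed signal of 6 liver markers (log axis), 1 point per array, knockouts as red circles and wild-types as blue triangles with replicate numbers. Knockout replicate 4 has the highest liver sum (8399), the highest Rbp4 signal (310) and the lowest Rbp7 signal (6).

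The retinoic acid binding proteins gave little signal in either genotype. Crabp1 (1448326_a_at, chr9:54764748-54773110) gave 13, 29, 1 and 6 in knockouts, against 4, 14, 16 and 25 in wild-types. Crabp2 (1451191_at, chr3:87948693-87953372), which hands retinoic acid to its nuclear receptor, gave 3 to 6 in knockouts and 3 to 5 in wild-types. Neither passed the filter, and both groups overlapped. In a fit with no filter the log2 fold changes were -0.17 for Crabp1 and 0.03 for Crabp2 (adjusted p = 0.841 and 0.93 by limma). At signals this low the array says little about either gene.

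The genes with array profiles nearest to those of Stra6l and Bco1 were found by the root mean square difference of log2(signal + 16), less the wild-type mean, over the 8 arrays and 12857 genes. For Stra6l they were Spp2 (0.30), Slc34a3 (0.31) and Folr1 (0.42). Spp2 gave 25 to 37 in knockouts and 178 to 747 in wild-types, and Slc34a3, a sodium-phosphate transporter, gave 55 to 82 and 561 to 1052. Folr1, a folate receptor, gave 229 to 368 in knockouts and 2353 to 3537 in wild-types. In each of the 3 genes, as in Stra6l, wild-type replicate 3 was the lowest wild-type array. For Bco1 the nearest were Slc5a8 (0.25), a sodium-coupled monocarboxylate transporter, Cyp2j13 (0.27) and Mab21l3 (0.30). Their log2 fold changes were 1.18, 1.32 and 1.27. Like Bco1, all 3 were lowest in wild-type replicate 4 and, among knockouts, highest in replicate 4. Also like Bco1, Slc5a8 had a wild-type mean (16.75) under the filter's limit. It passed only through the knockouts, so its mean had to be higher there. For Mab21l3 the genotypes overlapped, with 37 in knockout replicate 1 and 57 in wild-type replicate 3. The measure includes the genotype difference itself, and the genes were picked by likeness over these same arrays. Shared low and high arrays thus follow from the choice, and nearness is a description of these arrays only.

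**Figure D4:**
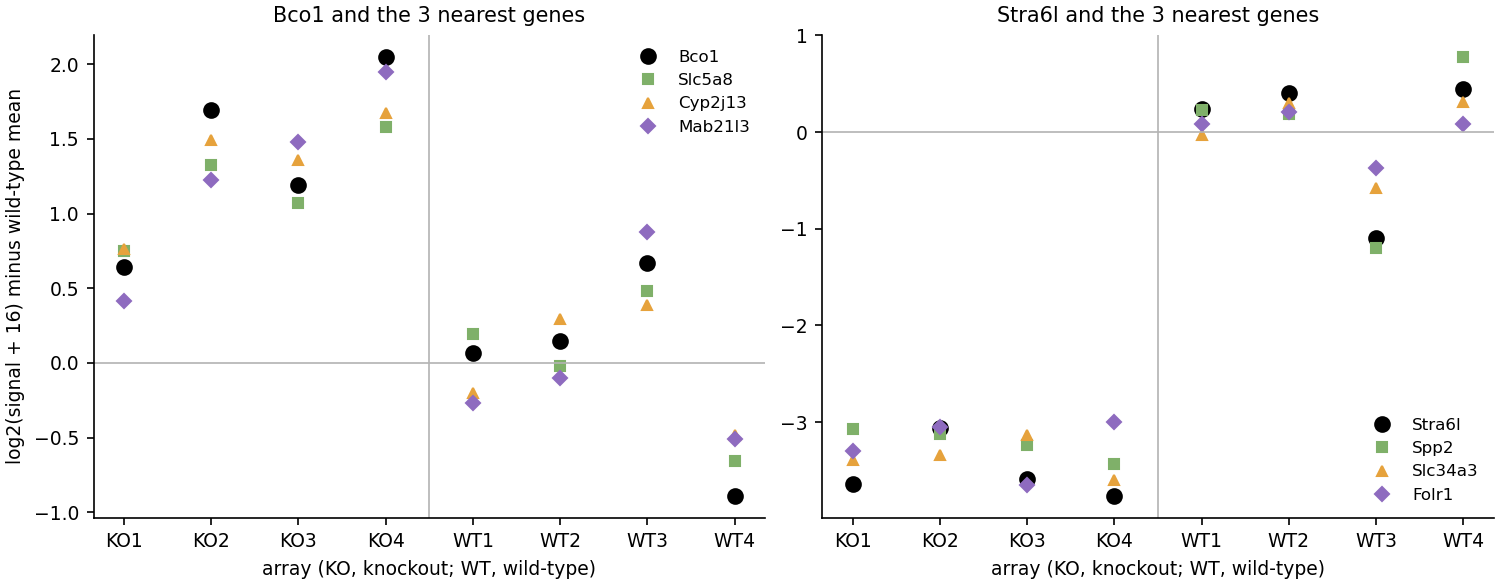
Profile of Bco1 (left) and Stra6l (right, black circles) and of the 3 genes nearest to each, as log2(signal + 16) less the wild-type mean, over 4 knockout arrays (KO1 to KO4) and 4 wild-type arrays (WT1 to WT4). The 3 genes near Stra6l share its low wild-type replicate 3, a likeness that the choice by profile favours.

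Of 68 other genes of retinoid handling that were listed by role, 61 were on the array with their own probe set and 49 passed the filter. Each was represented by its probe set with the highest mean, and some of these, among them those of Ttr, Lrp2, Dgat1 and Rdh9, are of a kind that can match several transcripts. There were 10 higher and 4 lower genes in knockouts, against 6.64% higher and 8.51% lower among 12858 genes. Of those called, 5 had a mean under the filter's limit in 1 genotype and passed only through the other, where they were high, so that they had to differ. These were Plb1, Adh4 and Rdh9, which passed through the knockouts, and Lrp2 and Sdr16c5, which passed through the wild-types. The median log2 fold change was 0.12, beside 0.03 for all genes.

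In transport, Ttr was the 1 of 3 tested that was called. It averaged 1582 ± 1164 in knockouts and 4951 ± 1028 in wild-types (SD, n = 4 each), and fell by 1.87 on the log2 scale (adjusted p = 0.00579 by limma). Its call ended with the Xist signal (adjusted p = 0.0675 by limma) or the 3' over 5' control signal (0.136) as a covariate. Rbp3 (-0.58) and Fabp5 (0.12) did not pass.

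In uptake and carotenoid handling, 1 of 8 was higher and 1 lower. Bco2, which cleaves carotenoids off centre, gave 291, 242, 199 and 289 in knockouts, against 90, 91, 158 and 73 in wild-types. It rose without overlap by 1.22 ± 0.20 on the log2 scale (SE, adjusted p = 0.00173 by limma), and was called under every alternative tried. Lrp2, the endocytic receptor megalin, which takes up RBP4 in the kidney, gave 3, 4, 3 and 14 in knockouts, against 209, 170, 54 and 117 in wild-types, and fell (-2.70, adjusted p = 0.000206 by limma). The fatty acid transporter gene Cd36 (-0.56, adjusted p = 0.101 by limma) and Lrp1 (0.38, adjusted p = 0.105 by limma) did not pass, although Cd36 was called as lower without wild-type replicate 3 (-0.77, adjusted p = 0.0041 by limma) and with array weights (-0.67). Of the 2 Lrp1 probe sets the other was called as higher, and Lrp1 was called with the mean of both (0.51, adjusted p = 0.00772 by limma) and with array weights (0.39). Isx, the repressor of Bco1, averaged 480 ± 94.5 in knockouts and 575 ± 55.6 in wild-types (SD, n = 4 each), with a log2 fold change of -0.27 that did not pass (adjusted p = 0.267 by limma).

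Among ester synthesis and hydrolysis genes 2 of 5 were higher and 0 lower at an adjusted p under 0.05 by limma. Dgat1, an acyltransferase that can also esterify retinol, averaged 2764 ± 548 in knockouts and 1750 ± 183 in wild-types (SD, n = 4 each) and rose by 0.64 (adjusted p = 0.00874 by limma). Its call ended with either of these covariates and when Xist-positive arrays were dropped (adjusted p = 0.0746 to 0.242 by limma). Plb1, a brush border phospholipase with retinyl ester hydrolase activity, gave 6, 112, 55 and 80 in knockouts, against 2, 3, 2 and 3 in wild-types. It was called as higher (1.84, adjusted p = 0.0202 by limma), and the call ended without knockout replicate 4 (adjusted p = 0.054 by limma) or wild-type replicate 1 (0.0523), and with the Xist signal as a covariate (0.174). Dgat2 (-0.36) and Pnliprp2 (0.71) did not pass.

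Retinol and retinal enzymes were split, with 5 of 16 higher and 2 lower. Rdh16 (36, 52, 65 and 5 in knockouts, 1 in each wild-type) did not pass the filter. Nor did Sdr16c6 (7, 8, 1 and 1 in knockouts, 16, 24, 18 and 26 in wild-types). In a fit with no filter Rdh16 was called as higher (1.54, adjusted p = 0.0231 by limma) and Sdr16c6 as lower (-0.88, adjusted p = 0.0212 by limma). Retsat, which saturates retinol, gave 752, 1251, 931 and 449 in knockouts, against 144, 154, 181 and 145 in wild-types, and rose by 2.24 ± 0.24 (SE, adjusted p = 8.25e-05 by limma). Adh1 averaged 6613 ± 498 in knockouts and 2963 ± 791 in wild-types (SD, n = 4 each) and rose by 1.18. The dim wild-type genes Adh4 (5.67), Rdh9 (4.26) and Rdh7 (3.43) also rose. Sdr16c5, a retinol dehydrogenase, fell by 3.99, with 1 to 22 in knockouts and 221 to 399 in wild-types. Rdh14 fell by 0.69 (adjusted p = 0.00257 by limma), a call that ended with the mean of its probe sets (adjusted p = 0.125 by limma) and with the 3' over 5' covariate (0.0515). Adh5 (0.29) and Rdh5 (-0.42) did not pass, and Adh5 was called as higher without knockout replicate 4 (0.35), wild-type replicate 3 (0.33) or both (0.39), with quantile normalization (0.32) and with array weights (0.30).

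Among genes of retinoic acid synthesis and breakdown 1 of 6 was higher and 0 were lower by limma. Aldh1a1, which oxidises retinal to retinoic acid, averaged 1887 ± 309 in knockouts and 826 ± 264 in wild-types (SD, n = 4 each), and rose by 1.21 (adjusted p = 0.0012 by limma). Cyp1b1 (0.64, adjusted p = 0.0751 by limma) and Aldh1a7 (0.36, adjusted p = 0.086 by limma) did not pass. Cyp1b1 was called as higher without knockout replicate 3 (0.75) or wild-type replicate 3 (0.81), without wild-type 3 and knockout 4 together (0.70) and with array weights (0.71). None of 5 receptor genes passed at an adjusted p under 0.05 by limma, with Rarg at -0.45 (adjusted p = 0.0766) and Rarb at 0.45 (0.294), though Rarg was called as lower without wild-type replicate 3 (-0.53, adjusted p = 0.0449 by limma), with array weights (-0.51) and with the mean of its probe sets (-0.59). Of 6 genes known to respond to retinoic acid, Meis1 was called as higher (0.86, adjusted p = 0.0207 by limma) and 0 were lower. The call of Meis1 ended without any 1 of 6 arrays (adjusted p = 0.0516 to 0.0617 by limma), namely knockout and wild-type replicates 1, 2 and 4. It also ended with the 3' over 5' covariate (1.09, adjusted p = 0.0868 by limma) and with the mean of its 3 probe sets (0.56, adjusted p = 0.0747 by limma), of which 1 was called. Tgm2 (0.29) and Rarres1 (-0.45) did not pass. Of the 5 Tgm2 probe sets tested 1 was called as lower, while the one used here was called as higher in the fit that includes Xist (0.57, adjusted p = 0.0487 by limma).

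**Figure D5:**
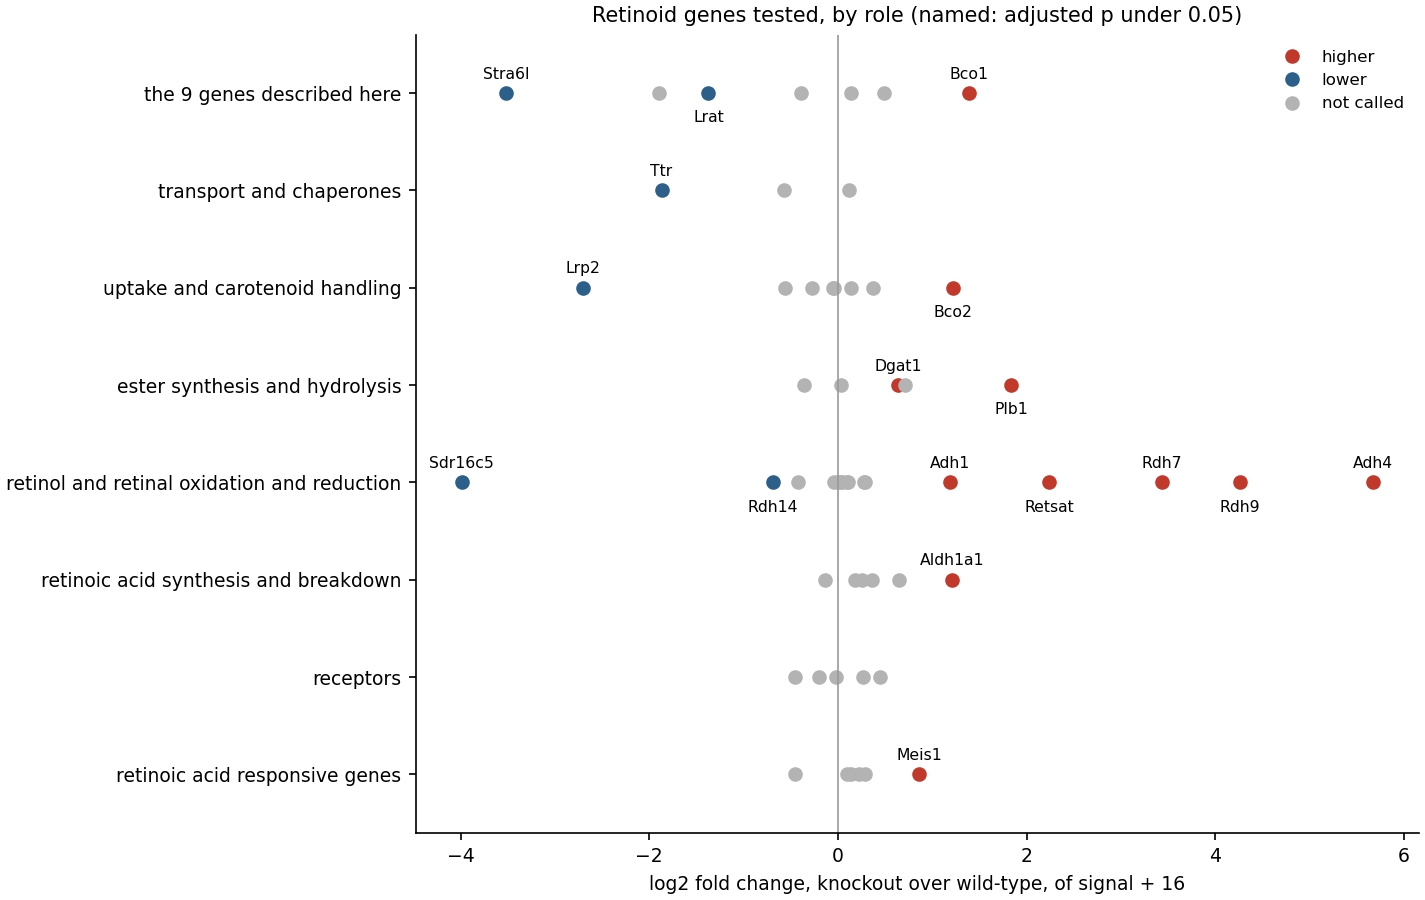
Log2 fold change (knockout over wild-type, signal + 16) of the 7 probe sets described here (top) and of 49 other retinoid genes, by role, coloured by call at an adjusted p under 0.05 (limma) and named where called. Stra6l lies at -3.51 and Bco1 at 1.39, and the retinol and retinal enzymes run from -3.99 (Sdr16c5) to 5.67 (Adh4).

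Across the arrays, median signals were 36 to 42, and pairs of arrays correlated on the log2 scale with r of 0.955 to 0.972 within a genotype and 0.943 to 0.958 across genotypes. Control probe sets at the 3' end over those at the 5' end, on the log2 scale, gave 0.017 to 0.098 in knockouts and -0.056 to 0.0064 in wild-types. With this measure as a covariate Stra6l (-4.11), Lrat 1421345_at (-1.86) and Bco1 remained called. Of the 5 leukocyte markers only Csf1r was called (lower in knockouts), and the sum of the other 4 was 420 to 599 in knockouts and 492 to 620 in wild-types. Of the 4 mesothelium markers only Upk3b was called (lower), and the sum of the other 3 was 111 to 221 in knockouts and 99 to 168 in wild-types. Both sums overlapped between genotypes. Of the 6 neuron and glia markers on the array only S100b was called, as lower without overlap (-0.89, adjusted p = 0.0395 by limma). Among the liver markers only Cps1 was called, as lower (-0.31, adjusted p = 0.031 by limma). The part of Csf1r, Upk3b, S100b and Cps1, or the cells they mark, in the results above was not tested.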

How the data were processed

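The authors hybridised 1 Affymetrix MOE430 2.0 array per sample, per the series design and the labels' protocols. The deposited table gives a linear signal intensity per probe set. Genotypes are those of the sample titles, although the extraction text of every sample speaks of wild-type tissue. The arrays' means after trimming 2% at each end were all about 150.05, so the authors' scaling is in the values. The signal algorithm is not given in the sources used here. There were 0 value columns without a sample.

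The 64 control probe sets and the 40% of the others with the lowest mean signal (up to 24.6) were left out. The remaining 26982 were fitted as log2(signal + 16) with limma 3.58.1 in R 4.3.3 (lmFit, eBayes with intensity trend, genotype as the only term, all 8 arrays) and adjusted over all of them, two-sided. The fit was tested on simulated data. Gene symbols are those of the platform annotation (34958 probe sets with 1, 932 with several, 9211 with none), checked by Entrez ID against RefSeq on GRCm38.p6 (34754 found, 0 updated). Arrays give no depth, so their number limits the precision. RefSeq promoter windows were searched with Python 3.11.15.

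The genes, lists and tests were chosen with earlier results of these data known. All probe sets of the 9 genes are given. Of the other retinoid genes, each called one and the 2 (uptake genes 3) with the smallest p per role are named. Rdh16 and Sdr16c6, under the filter and called in the fit without it, are named as well. The liver sum without Cps1 was chosen after its values were seen. In all, 22 alternatives were tried.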

Additional observations from a re-analysis of the deposited data

Results flagged for a closer look

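Among the 20 groups of 4 arrays formed by 10 probe sets and both genotypes, 2 held an array whose gap to the nearest other array was above Dixon's 95% critical value for 4 samples, as a share of the range. Chance alone flags about 1 in 20 groups. Rbp4 was 310 in knockout replicate 4, against 80 to 106 in the other knockouts (gap 0.887 of the range), the array that also had the highest liver marker signal. Stra6 was 20 in wild-type replicate 3, against 6 to 7 in the other wild-types (0.929 of the range), all of them below the filter's limit.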

How the results depend on the processing

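Stra6l and Lrat 1421345_at kept direction and call under all 21 alternatives that use single probe sets (log2 fold changes -4.11 to -2.72 and -1.86 to -1.06). The count of higher probe sets among the 10 was 1 (Bco1), and 0 with a filter of 60% (which left Bco1 out), offset 1, the replicate block, the Xist signal as covariate, only the arrays without Xist signal, and a threshold of 0.01, and 0 to 1 with each array left out (without wild-type replicate 4 the 1 was Rbp2, not Bco1). Lower ones were 2 to 3 with each array left out. Over the array, 1438 probe sets were higher and 1822 lower. The numbers higher were 756 with the replicate block, 2639 with array weights, 765 with Xist and 466 with the 3' over 5' measure as covariate, 826 in arrays without Xist signal, 662 at 0.01 and 890 to 2102 with each array left out. The numbers lower were 1171 with the block, 914 with the 3' to 5' ratio, 1067 at 0.01 and 1302 to 2187 with each array left out. With no filter, 11 of 61 other retinoid genes were higher and 5 lower, beside 1179 and 1628 of 45037 probe sets over the array. Of the other retinoid genes, 2 were lower with the 3' to 5' ratio, Ttr and Rdh14 having lost the call. The cause was not tested. Rbp4 turned to -0.14 without wild-type 3 and knockout 4. With each array left out it was -0.27 (without knockout 4) to 0.32, and Rbp7 was -0.65 to 0.0928 (without knockout 4). Tgm2 turned to -0.0249 with the mean of its probe sets, and Rarres1 to 0.0483 with the Xist signal and 0.00090 without Xist arrays. None of these was called. The replicate numbers do not pair the samples (r of same-numbered deviations -0.27 to -0.0075). With the replicate block Bco1 (adjusted p = 0.0789 by limma), Dgat1 (0.0525) and Meis1 (0.0938) lost their calls.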
